A study of Mus musculus with 6 samples.

Results

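The mitotic spindle and division genes are 36 genes whose products carry a cell into mitosis, build the spindle, attach and check the chromosomes and cut the daughter cells apart. They were taken as a list of gene symbols matched to Ensembl identifiers, without use of any measured value, and all 36 were present among the 48709 genes of the count table. Polyadenylated RNA of 13.5 dpc (days post coitum) ovaries was sequenced from 3 control and 3 APAP+IBU libraries, to ask which genes change in fetal ovaries after in utero exposure to 2 common painkillers. Each library came from its own pool of gonads from embryos of more than 1 dam, so no library stands for a single embryo. The mothers were wild-type pregnant CD1 mice, an outbred stock, gavaged 4 times per day every 3 hours from 10.5 to 13.5 dpc. In the exposed group they received acetaminophen (APAP, 30 mg/kg per day) alternating with ibuprofen (IBU, 15 mg/kg per day), both inhibitors of prostaglandin synthesis, and in the control group ethanol. Only IBU appears in the titles of the exposed samples, but both drugs stand in their exposure label. Nothing in the labels says that same-numbered pools share a litter or a day.

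Entry into mitosis is driven by cyclin-dependent kinase 1 bound to cyclins A and B, and exit follows when the anaphase-promoting complex, activated by CDC20, has cyclin B and securin degraded. Between these points the spindle checkpoint holds back anaphase until every kinetochore is attached to microtubules, and the chromosomal passenger complex corrects wrong attachments. At the studied stage the germ cells of the mouse ovary leave mitotic division and enter meiosis, while somatic cells of the gonad go on dividing, so RNA of these genes comes from several dividing cell types.

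Many of these genes are transcribed together late in the cell cycle through 2 short promoter elements, a CCAAT box bound by the factor NF-Y and, downstream of it, a CHR element (TTTGAA or TTTAAA) to which the DREAM and MuvB complexes bind. RefSeq promoter windows around the transcription start on GRCm38.p6 were found for 30 of the 36 genes and gave 32 windows. CCAAT was searched on both strands, and so were TTTGAA and TTTAAA, of which the latter reads the same on both strands. CCAAT stood in 75% of the members' windows and in 37.4% of all 32851 windows. TTTGAA or TTTAAA stood in 84.4% against 27.6%. A CCAAT that began upstream of one of these hexamers was found in 71.9% of the members' windows, those of 21 genes, and in 5.80% of all windows. The pair is shown here for the 4 genes with the lowest unadjusted p in the comparison of all 6 libraries among those that hold it (Cenpf, Kif23, Spc25 and Cenpe), and for Ccnb1 and Ccnb2, which were picked after their sequences had been seen because they space their boxes evenly. The stretches, from RefSeq, are Cenpf chr1:189688079-189688222 (minus strand), Kif23 chr9:61946792-61946859 (minus), Spc25 chr2:69206184-69206273 (minus), Cenpe chr3:135212503-135212582 (plus), Ccnb1 chr13:100786523-100786589 (minus) and Ccnb2 chr9:70421545-70421645 (minus). Each is written 5′ to 3′ on the strand of its gene, and capitals mark the hexamer and CCAAT. In Kif23 CCAAT lies on the other strand and is written as its reverse complement ATTGG.
Cenpf: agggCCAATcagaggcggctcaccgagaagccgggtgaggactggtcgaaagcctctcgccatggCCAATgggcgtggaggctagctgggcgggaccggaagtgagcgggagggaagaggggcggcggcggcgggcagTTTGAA
Kif23: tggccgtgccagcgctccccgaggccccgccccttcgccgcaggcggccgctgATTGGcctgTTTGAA
Spc25: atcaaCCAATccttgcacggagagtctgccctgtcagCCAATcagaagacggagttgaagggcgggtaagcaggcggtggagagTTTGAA
Cenpe: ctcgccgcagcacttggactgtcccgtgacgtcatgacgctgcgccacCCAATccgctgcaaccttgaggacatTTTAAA
Ccnb1: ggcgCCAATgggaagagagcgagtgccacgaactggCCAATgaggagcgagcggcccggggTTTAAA
Ccnb2: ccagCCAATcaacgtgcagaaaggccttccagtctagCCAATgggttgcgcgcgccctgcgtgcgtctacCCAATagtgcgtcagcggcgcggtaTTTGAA

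In Ccnb1 the CCAAT matches began 99 and 67 bases before the start, and TTTAAA 42 bases before it. In Ccnb2 they began 87, 54 and 21 bases before the start, with TTTGAA 5 bases after it. A pair of CCAAT starts 31 to 34 bases apart stood in 18.8% of the members' windows, those of 6 genes, and in 1.20% of all windows. Ccnb1 and Ccnb2 are among these 6 genes and their spacing was known when the range was set, so the share is only a description. The window of Pttg1 held none of these letters, nor did those of Mad2l1, Nuf2 and Nusap1. A match is a sequence description and was not tied to binding in this tissue.

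**Figure D1:**
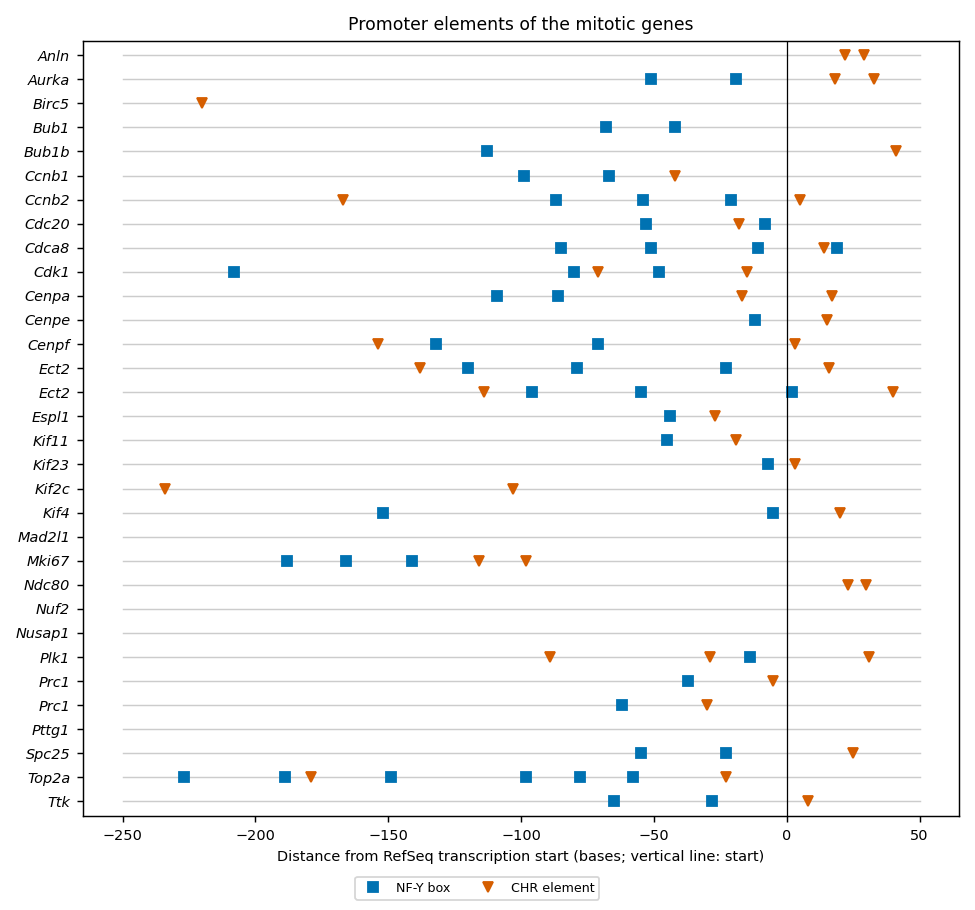
Positions of CCAAT (squares, labelled NF-Y box) and TTTGAA or TTTAAA (triangles, labelled CHR element) on both strands in the 32 RefSeq promoter windows of 30 genes, as the distance of the match's first base from the transcription start, with genes in alphabetical order. Squares stand to the left of a triangle in 23 of the 32 windows, and the lines of Mad2l1, Nuf2, Nusap1 and Pttg1 are empty.

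All 36 genes were measured well above the counting limit. Their counts ran from 481 to 31102 in libraries with total counts from 37811968 to 48954631, and the median gene of the list had a mean level of 92.9 CPM (counts scaled to the library's total, after TMM normalisation) against 14.2 CPM for all tested genes. Per kilobase of exon, the highest control levels were those of Top2a, the topoisomerase that untangles chromosomes (65.9 ± 12.1 CPM per kb, SD, n = 3), Ccnb2 (63.8 ± 6.30), Cdc20 (50.9 ± 7.01) and Bub1 (41.8 ± 8.62). The lowest were Ndc80 (4.69 ± 0.475) and Cdc25c, a phosphatase that activates CDK1 (2.87 ± 0.322). Top2a and Ccnb2, neighbours in this order, did not differ beyond their spread, whereas Ndc80 and Cdc25c did. Reads of a gene and of an overlapping gene on the other strand cannot be told apart if the counting ignored strand, which the sources used here do not give. Such a partner covered 29.3% of the exonic length of Kif20a (Cdc23), 15.1% of Kif4 (Pdzd11), 12.7% of Cdc25c (Gm3550), 12.5% of Ccna2 (Exosc9) and 11.1% of Prc1 (Rccd1). Processed pseudogenes were counted at 80 to 156 reads per library (Ccnb1-ps), 5 to 15 (Ccnb2-ps) and 0 to 7 (Kif4-ps), and reads that fit such a copy and its parent make the parent's count uncertain.

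The replicate 3 libraries stood apart from the others in both groups, and this bears on every member. The chi-square per degree of freedom between libraries of 1 group was 29.8 for control replicates 1 and 2 and 17.2 for APAP+IBU replicates 1 and 2, and from 57.8 to 143 for pairs with a replicate 3. Alb, the liver-made serum albumin, was at 23.7, 49.4 and 691 CPM in controls 1 to 3 and at 19.5, 105 and 1265 CPM in APAP+IBU 1 to 3. The summed level of 8 liver genes was 248, 535 and 1878 CPM in controls and 176, 368 and 3036 CPM in exposed ovaries, and none of them was at 0 in every library. The summed level of the 36 mitotic genes was likewise highest in the replicate 3 library of each group, at 3610.3, 3773 and 4658 CPM in controls and 3844, 4031 and 4433 CPM in exposed ovaries. Of the 36 genes, 28 had their highest level in a replicate 3 library, and 18 were higher in both replicate 3 libraries than in the other 4. These counts were not made over all tested genes, so they do not set the 36 apart from other genes. The part of the liver transcripts in these levels was not tested. The main comparisons are therefore given with all 6 libraries and with replicates 1 and 2 of each group. P-values of the latter do not include the spread that the replicate 3 libraries add.

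**Figure D2:**
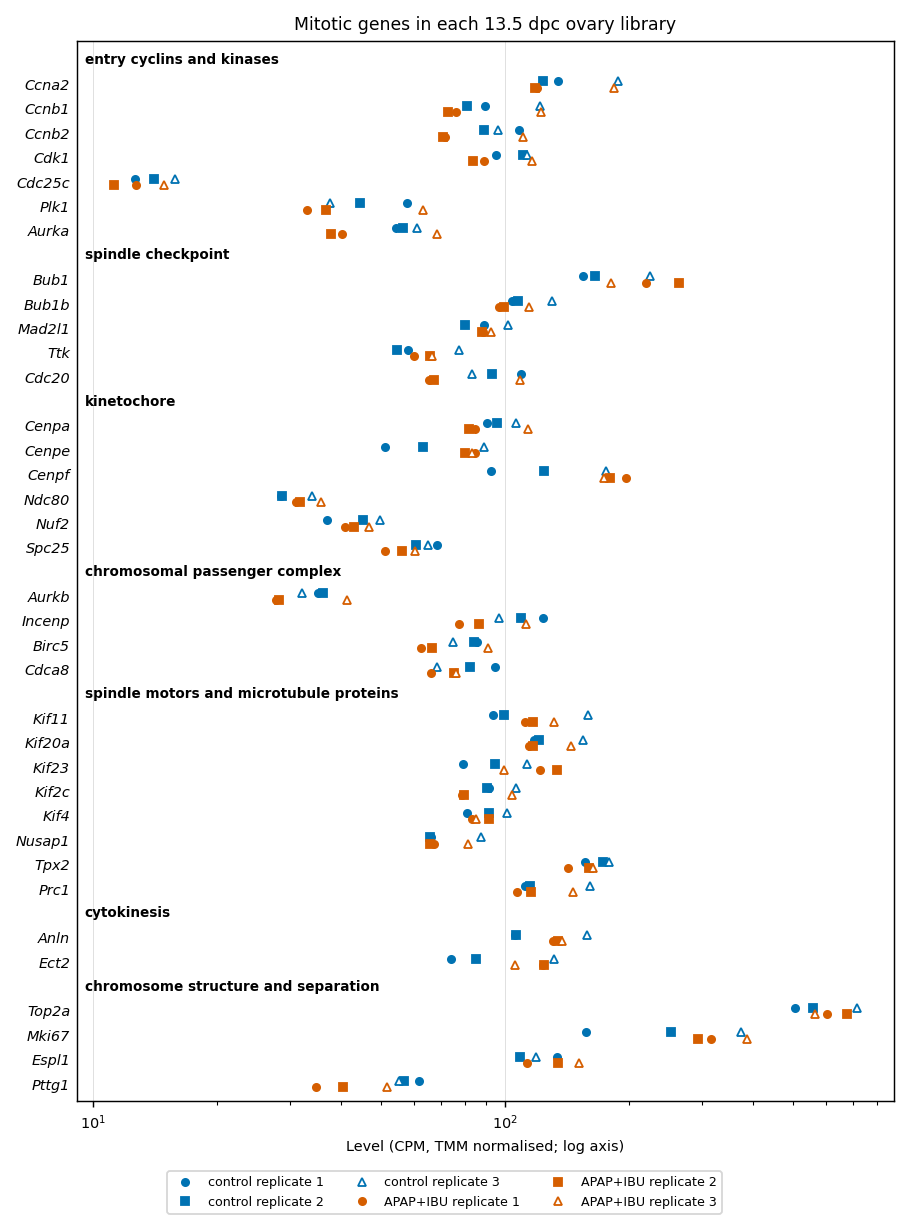
Level of each of the 36 genes (CPM, TMM normalised, log axis) in the 3 control (blue) and 3 APAP+IBU (orange) libraries, grouped by role. Open triangles, the replicate 3 libraries, stand to the right for most genes, while for Pttg1 and Spc25 every orange point lies left of every blue one.

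The other cells of the pools differed as well. The summed level of 6 germ cell markers was 918, 811 and 1051 CPM in controls and 1021, 1066 and 958 CPM in exposed ovaries. Within that list Ddx4 was at 213, 191 and 268 CPM in controls and at 246, 251 and 224 CPM in exposed ovaries, while the pluripotency gene Pou5f1 was at 144, 94.8 and 84.5 CPM against 57.5, 64.0 and 108 CPM. With all 6 libraries 2 of the 6 germ cell markers had log2 fold changes above 0 and 4 below. Within replicates 1 and 2, 2 were higher (Ddx4 and Dazl) and 3 lower (Dnd1, Pou5f1 and Dppa4) at an adjusted p under 0.05. Of all tested genes, 14.2% were higher and 12.9% lower there. After a correction of the same libraries for gene length and GC content, 0 of the 6 passed. Ddx4 was then at 0.08, Dazl at -0.05, Dnd1 at -0.82, Pou5f1 at -0.50 and Dppa4 at -0.66. Granulosa markers summed to 339 to 602 CPM, of which Foxl2 made up 0.944 to 8.16 CPM and Wnt4 106 to 203 CPM. The summed level of 9 genes of meiotic prophase was 901, 963 and 749.8 CPM in controls and 1094, 1284 and 634 CPM in exposed ovaries. This sum was lowest in the replicate 3 library of each group. Among controls the mean log2 CPM of the 9 was 5.81, 6.10 and 5.91, so lowest in replicate 1. With all 6 libraries 7 of the 9 had log2 fold changes above 0, while Stra8 (-0.42) and Rec8 (-0.41) were below. Within replicates 1 and 2 these 7 were higher and these 2 lower at an adjusted p under 0.05 (14.2% and 12.9% of all). After the length and GC correction of these libraries 4 were higher (5.68% of all tested genes) and 0 lower (8.23%). Sums were lower in every exposed than in every control library for endothelial (360.2 to 405 against 412 to 476 CPM), neuronal (16.5 to 23.0 against 41.2 to 57.1 CPM) and spermatid genes (1.44 to 4.85 against 32.3 to 120.4 CPM), and overlapped for erythroid, stromal, macrophage, mesonephric, testis Sertoli and granulosa genes. Erythroid sums were 1868 to 6298 CPM in exposed and 3911 to 10982 CPM in control libraries. Every marker list had all its genes detected in at least 1 library, and the part of these cells in the mitotic genes' levels was not tested. In whole ovaries, a change in the number of dividing cells and a change in these RNAs per cell cannot be told apart.

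With all 6 libraries, none of the 36 genes passed an adjusted p of 0.05 in edgeR's quasi-likelihood test, where 0% of the 20167 tested genes did, nor in DESeq2, where 0.952% did. The smallest adjusted p among them was 0.692. At an unadjusted p under 0.05, 1 of the 36 was lower (2.78%, with 6.22% of all tested genes called in either direction and 3.21% lower) and 0 were higher (3% of all). DESeq2 had 2 at that limit, Pttg1 lower (3.52% of all) and Cenpf higher (4.12%). Their median log2 fold change was -0.07, beside -0.0047 for all tested genes, with 12 above and 24 below 0. The groups did not overlap for 2 genes that were lower in exposed ovaries (5.92% of all tested genes) and for 0 that were higher (4.78%). With 3 libraries per group an exact permutation test cannot go below p = 0.1. The median moved with single libraries, to 0.08 without control replicate 3 and to -0.22 without APAP+IBU replicate 3.

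With replicates 1 and 2 of each group only, 13 of the 36 genes passed an adjusted p of 0.05, which was 36.1% of them where 27.2% of the 20633 genes tested were called. Of these, 6 were higher in APAP+IBU ovaries (14.2% of all tested genes) and 7 were lower (12.9%). The higher ones were Anln, Bub1, Cenpe, Cenpf, Ect2 and Kif23, and the lower ones were Aurka, Birc5, Ccnb2, Cdc20, Incenp, Plk1 and Pttg1. At an unadjusted p under 0.05 there were 9 higher and 10 lower genes (20.9% and 20% of all), and the groups did not overlap for 11 higher and 16 lower ones (34.5% and 34%). The median log2 fold change was -0.06, with 16 above and 20 below 0. Leaving out control replicate 3 alone left Cenpe, Cenpf and Ect2 as calls, all higher (5.16% of all genes tested in that fit, 2.89% higher). Leaving out APAP+IBU replicate 3 alone left none, with 0% of all genes called. In that fit 6 genes were lower at an unadjusted p under 0.05 (Aurka, Birc5, Ccnb2, Cdc20, Incenp and Pttg1), where 6.22% of all genes were.

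**Figure D3:**
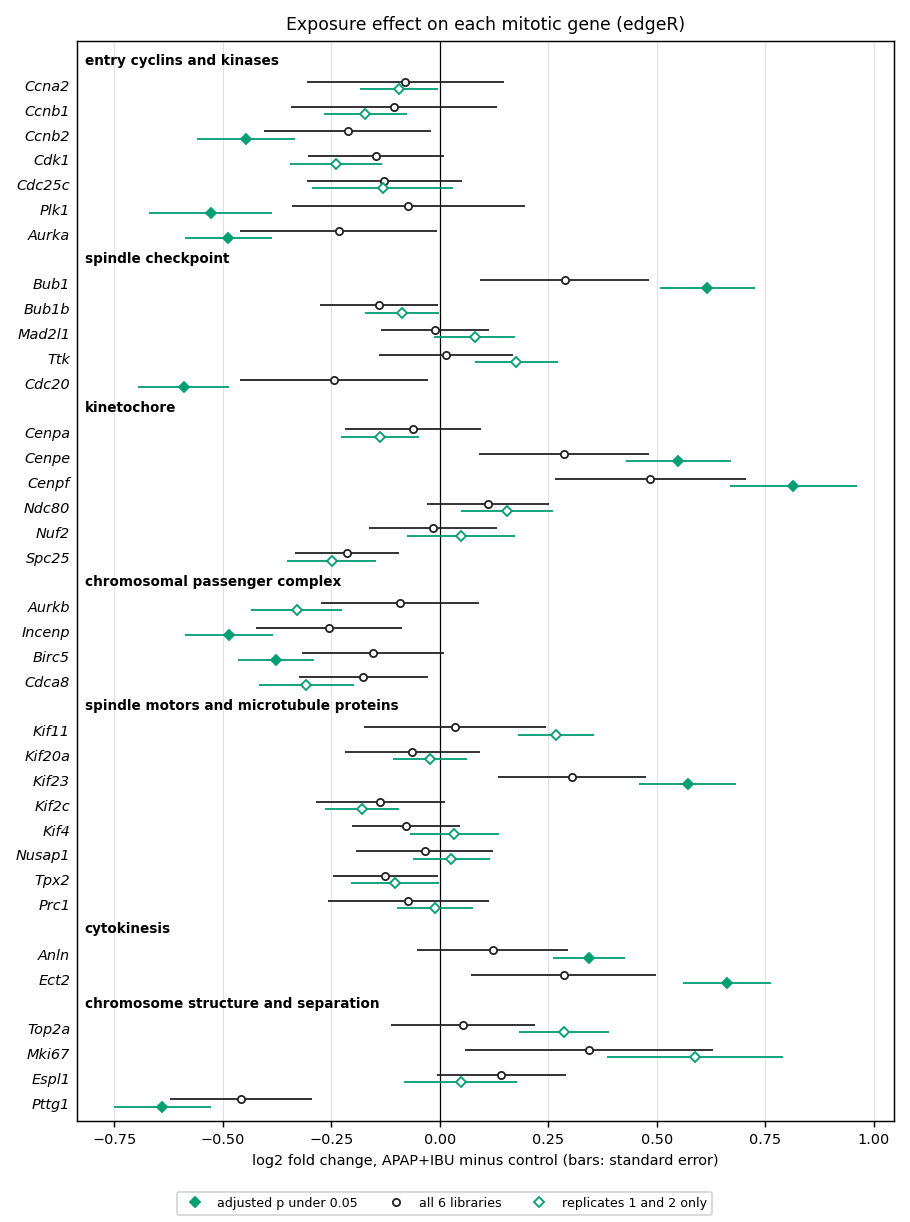
Log2 fold change of each gene, APAP+IBU minus control, with its standard error, from all 6 libraries (black circles) and from replicates 1 and 2 only (green diamonds, filled at an adjusted p under 0.05, edgeR). No black circle is filled, and 13 green diamonds are, 6 to the right of 0 and 7 to the left.

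Among the entry cyclins and kinases, all 7 log2 fold changes were below 0 with all 6 libraries, from -0.23 for Aurka to -0.07 for Plk1 (0.08 after a correction for length and GC content), and none passed a test. Without control replicate 3, Ccna2 and Ccnb1 were at 0.13 and 0.09. Their summed level was 551, 519 and 634 CPM in controls and 442, 431 and 680.3 CPM in exposed ovaries, so that exposed replicates 1 and 2 were the lowest and exposed replicate 3 the highest of the 6. Cdk1, the kinase that drives entry, was at 95.4, 111 and 113 CPM in controls and 88.8, 83.5 and 116 CPM in exposed ovaries (log2 fold change -0.15, SE 0.16, adjusted p = 0.765, and -0.24, adjusted p = 0.137 with replicates 1 and 2). Its partner Ccnb1 (cyclin B1) was at 89.3, 81.0 and 122 CPM against 76.3, 72.8 and 123 CPM, with the replicate 3 libraries of both groups nearly level (-0.11, adjusted p = 0.885, and -0.17, adjusted p = 0.222 with replicates 1 and 2). Ccna2 (cyclin A2) was also highest in the replicate 3 libraries, at 188 CPM in the control and 184 CPM in the exposed one, with the other 4 libraries between 118 and 134 CPM. With the length and GC correction of replicates 1 and 2, Cdk1 was at -0.35 (adjusted p = 0.0426) and Ccnb1 at -0.40 (adjusted p = 0.0376). Ccna2 was at -0.24 there (adjusted p = 0.140).

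Within replicates 1 and 2, 3 genes of this group fell. Aurka, the kinase that matures centrosomes, was at 54.3 and 56.6 CPM in controls and 40.2 and 37.7 CPM in exposed ovaries (log2 fold change -0.49, SE 0.10, adjusted p = 0.0147). Plk1, Polo-like kinase, was at 57.7 and 44.4 CPM against 33.1 and 36.7 CPM (-0.53, SE 0.14, adjusted p = 0.0333). Ccnb2 (cyclin B2) was at 108 and 88.9 CPM against 71.6 and 70.7 CPM (-0.45, SE 0.11, adjusted p = 0.0273). After correction of these 4 libraries for length and GC content none of the 3 passed, with Aurka at -0.33 (adjusted p = 0.0532), Ccnb2 at -0.23 (adjusted p = 0.181) and Plk1 at -0.14 (adjusted p = 0.489). All 3 orders were opposite in replicate 3, where Plk1 was at 37.7 CPM in the control and 63.2 CPM in the exposed library, Aurka at 61.2 and 68.5 CPM, and Ccnb2 at 96.2 and 111 CPM. Cdc25c was the lowest member of the group, at 12.6, 14 and 15.8 CPM in controls and 12.7, 11.2 and 14.9 CPM in exposed ovaries.

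The spindle checkpoint genes split. Bub1, a checkpoint kinase at the kinetochore, was at 155, 166 and 225 CPM in controls and 220.5, 265 and 181 CPM in exposed ovaries, and rose within replicates 1 and 2 (log2 fold change 0.62, SE 0.11, adjusted p = 0.00962) but not with all 6 libraries (0.29, SE 0.19, adjusted p = 0.699). Cdc20, the activator of the anaphase-promoting complex and the checkpoint's target, was at 109, 93.0 and 83.1 CPM in controls and 65.2, 67.1 and 109 CPM in exposed ovaries. It fell within replicates 1 and 2 (-0.59, SE 0.10, adjusted p = 0.00968), and the value with all 6 libraries was -0.24 (SE 0.22, adjusted p = 0.730). With the length and GC correction of replicates 1 and 2 neither passed, Bub1 at 0.20 (adjusted p = 0.306) and Cdc20 at -0.16 (adjusted p = 0.269). For both genes the control and exposed replicate 3 libraries stood in the opposite order. Bub1b, the checkpoint protein BUBR1, ran from 96.8 to 130.4 CPM, Mad2l1 from 80.0 to 102 CPM and the kinase gene Ttk from 54.7 to 77.3 CPM, with overlapping groups and log2 fold changes of -0.14, -0.01 and 0.01. The direction of Mad2l1 flipped with total-count scaling and that of Ttk with upper-quartile scaling. With the length and GC correction of replicates 1 and 2, Mad2l1 was at -0.48 (adjusted p = 0.0366). Bub1b was at -0.08 (adjusted p = 0.584) and Ttk at -0.13 (adjusted p = 0.467) there.

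Of the kinetochore genes, Cenpf had the largest positive fold change among the 36. Cenpf lies on chromosome 1 from 189640606 to 189688086 (GRCm38) and encodes a large microtubule-binding protein of the outer kinetochore. Its level was 92.5, 125 and 176 CPM in controls and 196, 180.0 and 174 CPM in exposed ovaries, with the control replicate 3 between the exposed values. The log2 fold change was 0.49 with all 6 libraries (SE 0.22, unadjusted p = 0.0580, adjusted p = 0.692) and 0.82 with replicates 1 and 2 (SE 0.15, adjusted p = 0.0102). Cenpe, a kinetochore motor, was at 51.2, 63.1 and 88.9 CPM in controls and 84.8, 80.1 and 83.0 CPM in exposed ovaries, so again control replicate 3 reached the exposed level. It rose within replicates 1 and 2 (log2 fold change 0.55, SE 0.12, adjusted p = 0.0179), and after the length and GC correction of these libraries was at 0.12 (adjusted p = 0.420) and Cenpf at 0.23 (adjusted p = 0.160).

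Spc25, which like Ndc80 and Nuf2 encodes a subunit of the NDC80 complex that grips microtubules, had a negative fold change in both sets of libraries. Spc25 (chromosome 2 from 69193895 to 69206194) was at 68.3, 60.9 and 65.0 CPM in controls and 51.1, 56.1 and 60.3 CPM in exposed ovaries. Every exposed library was below every control library, by a narrow margin between 60.3 and 60.9 CPM, and on total-count scaling the groups overlapped. The log2 fold change was -0.21 (SE 0.12, unadjusted p = 0.113, adjusted p = 0.692, exact permutation p = 0.1), and -0.25 (adjusted p = 0.114) with replicates 1 and 2. Ndc80 and Nuf2 did not share this order. Ndc80 was at 28.6, 28.8 and 34 CPM in controls and 31.1, 31.8 and 35.8 CPM in exposed ovaries. Nuf2 was at 37.0, 45.2 and 49.7 CPM against 40.8, 43.0 and 46.7 CPM. Within replicates 1 and 2, Ndc80 was at 0.15 (adjusted p = 0.313) and Nuf2 at 0.05 (adjusted p = 0.796). After the length and GC correction of these libraries all were below 0. Spc25 was then at -0.54 (adjusted p = 0.0259), Nuf2 at -0.37 (adjusted p = 0.0543) and Ndc80 at -0.24 (adjusted p = 0.180). Cenpa, the histone variant that marks centromeres, was at 90.3, 95.4 and 107 CPM in controls and 84.7, 81.7 and 114 CPM in exposed ovaries (-0.06, adjusted p = 0.900, and -0.14, adjusted p = 0.289 with replicates 1 and 2).

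The 4 genes of the chromosomal passenger complex had log2 fold changes below 0, from -0.25 to -0.09, and none passed a test with all 6 libraries. Their summed level was 339, 312 and 272 CPM in controls and 234, 256 and 321 CPM in exposed ovaries, so the order of the groups within replicates 1 and 2 was opposite to that in replicate 3. Incenp, the scaffold of the complex, was at 123, 109.5 and 96.6 CPM in controls and 77.4, 86.7 and 112 CPM in exposed ovaries and fell within replicates 1 and 2 (-0.49, SE 0.10, adjusted p = 0.0154). Birc5 (survivin) was at 85.6, 84.3 and 74.6 CPM against 62.6, 66.4 and 90.7 CPM and also fell there (-0.38, SE 0.09, adjusted p = 0.0211). Aurkb, the kinase of the complex, and Cdca8 (borealin) had values of -0.33 (adjusted p = 0.0557) and -0.31 (adjusted p = 0.0750) in the same libraries. After the length and GC correction of these libraries Aurkb was at -0.17 (adjusted p = 0.305), while Birc5, Incenp and Cdca8 passed as lower. All 4 genes were lower in control replicate 3 than in the other controls, as were Plk1, Cdc20 and Pttg1.

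**Figure D4:**
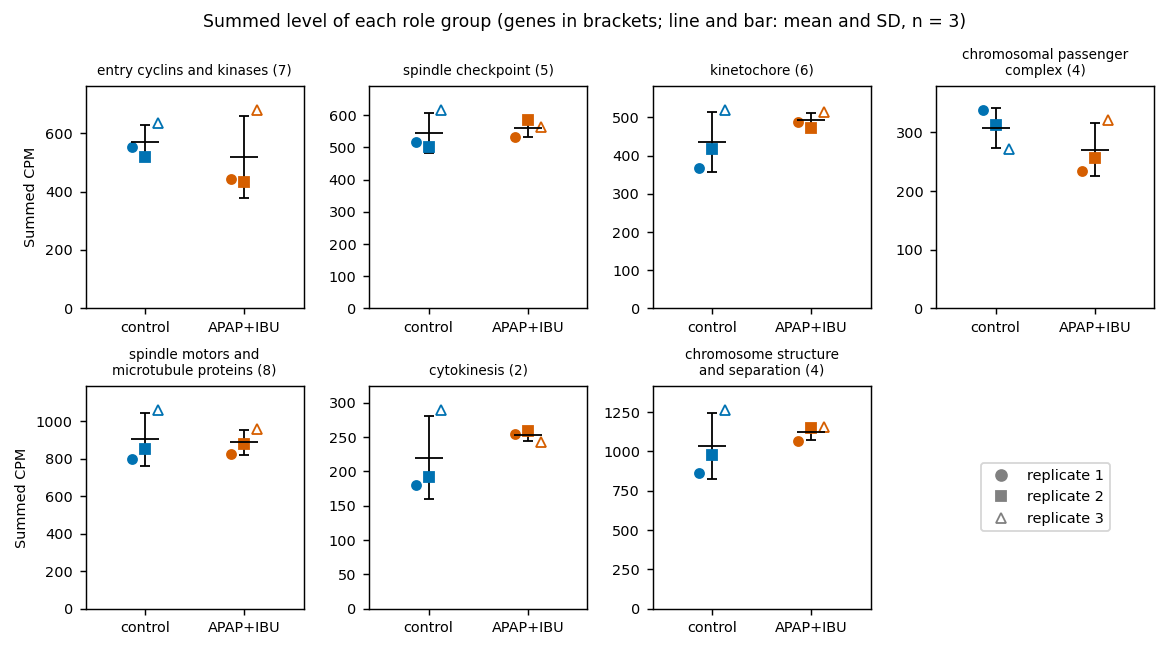
Summed level (CPM, axis from 0) of the genes of each role in every library, with the mean and SD of each group (n = 3). For the chromosomal passenger complex the replicate 3 triangles reverse the order that replicates 1 and 2 show, and in no panel do the groups separate.

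The 8 spindle motors and microtubule proteins had summed levels of 797, 852 and 1061 CPM in controls and 826, 880.3 and 957 CPM in exposed ovaries. Kif23, a motor of the central spindle, was the member of this group with the lowest p. It was at 79.3, 94.7 and 113 CPM in controls and 121, 134 and 99.3 CPM in exposed ovaries, with a log2 fold change of 0.30 for all 6 libraries (SE 0.17, adjusted p = 0.692) and of 0.57 for replicates 1 and 2 (SE 0.11, adjusted p = 0.0129). Its exposed replicates 1 and 2 were above all controls and replicate 3 was not, and the length and GC correction of replicates 1 and 2 gave 0.30 (unadjusted p = 0.0176, adjusted p = 0.0856). The other 7 had log2 fold changes from -0.14 (Kif2c, a microtubule depolymerase) to 0.04 (Kif11, the motor that separates the spindle poles), with overlapping groups. Tpx2, an activator of Aurora A, ran from 142 to 179 CPM, Prc1, which bundles the central spindle, from 107 to 161 CPM, Kif20a from 114 to 154 CPM, Kif4 from 80.9 to 101 CPM and Nusap1 from 65.6 to 87.3 CPM.

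Both cytokinesis genes, Anln (anillin, a scaffold of the contractile ring) and Ect2 (the activator of RhoA at the division plane), were higher in exposed ovaries within replicates 1 and 2. Ect2 was at 73.8, 85.3 and 131 CPM in controls and 124, 125 and 106 CPM in exposed ovaries (log2 fold change 0.66, SE 0.10, adjusted p = 0.00703 for replicates 1 and 2, and 0.29, SE 0.21, adjusted p = 0.702 for all 6). Anln was at 106, 106 and 159 CPM against 131, 135 and 138 CPM (0.34, SE 0.08, adjusted p = 0.0245, and 0.12, SE 0.17, adjusted p = 0.813). With the length and GC correction of replicates 1 and 2 neither passed, Ect2 at 0.18 (adjusted p = 0.209) and Anln at -0.014 (adjusted p = 0.938). In both genes the control replicate 3 was the highest of the 6 libraries.

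Pttg1, which encodes securin, the inhibitor that holds back separase until anaphase, was the only gene of the 36 with an unadjusted p under 0.05 with all 6 libraries. It lies on chromosome 11 from 43420250 to 43426251 (GRCm38). Its level was 61.9, 56.9 and 55.3 CPM in controls and 34.7, 40.5 and 51.6 CPM in exposed ovaries. Every exposed library was below every control library, with replicate 3 of the exposed group nearest to the controls. The log2 fold change was -0.46 (SE 0.16, 95% interval -0.84 to -0.08, unadjusted p = 0.0236, adjusted p = 0.692, exact permutation p = 0.1). With replicates 1 and 2 it was -0.64 (SE 0.11, adjusted p = 0.0093). The unadjusted call was lost when any 1 of control replicates 1 and 2 and APAP+IBU replicates 1 and 2 was left out, with values from -0.47 to -0.34 and unadjusted p from 0.0549 to 0.0977. Espl1, which encodes separase itself, was at 134, 109 and 119 CPM in controls and 113, 135 and 152 CPM in exposed ovaries (log2 fold change 0.14, SE 0.15, adjusted p = 0.760, and 0.05, adjusted p = 0.808 with replicates 1 and 2).

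Mki67, the gene of the proliferation marker Ki-67, spanned the widest range of the list within the controls, at 158, 253 and 373 CPM, and was at 316, 293 and 386 CPM in exposed ovaries. Its log2 fold change was 0.34 with all 6 libraries (SE 0.29, adjusted p = 0.720) and 0.59 with replicates 1 and 2 (SE 0.20, adjusted p = 0.0689). Top2a was at 507, 559 and 716 CPM in controls and 605, 677 and 567 CPM in exposed ovaries (0.05, SE 0.17, adjusted p = 0.919), and its value with replicates 1 and 2 was 0.29 (unadjusted p = 0.0265, adjusted p = 0.0783). Mki67 had the largest standard error of the 36.

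The fold changes followed the length of the genes. Among the 36 genes the log2 fold change and the exonic length had a Spearman correlation of 0.76 with all 6 libraries and 0.80 with replicates 1 and 2, where all tested genes gave 0.28 and 0.33 (20103 and 20567 genes with a length). The genes of the list share the same libraries and are not independent replicates. With GC content the correlation was -0.49 and -0.63 among the 36, and -0.35 and -0.47 over all tested genes. Of the 19 longer genes (4.919 to 15.433 kb of exon), 11 had a log2 fold change above 0 with all 6 libraries, and of the 17 shorter ones (1.531 to 4.677 kb), 1 did. Within replicates 1 and 2, all 5 calls among the longer genes were higher, and of the 8 calls among the shorter genes, 7 were lower and Bub1 was higher. The list is long as a whole, with a median of 4.919 kb against 3.613 kb for all tested genes.

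After a correction of every library for exonic length and GC content, the correlation with length was 0.28 with all 6 libraries and 0.39 with replicates 1 and 2. None of the 6 higher calls of replicates 1 and 2 passed after this correction. Kif23 went from 0.57 to 0.30 and was nearest to the limit (adjusted p = 0.0856), while Cenpf went from 0.82 to 0.23, Ect2 from 0.66 to 0.18, Bub1 from 0.62 to 0.20, Cenpe from 0.55 to 0.12 and Anln from 0.34 to -0.014. The corrected fit of these 4 libraries called 10 genes, all lower, where 13.9% of all genes tested were called, 8.23% lower and 5.68% higher. At an unadjusted p under 0.05, 2 genes were higher and 15 lower (13.3% and 17.6% of all). The 10 were Birc5, Ccnb1, Cdca8, Cdk1, Incenp, Mad2l1, Nusap1, Prc1, Pttg1 and Spc25. Ccnb1 was at -0.40 (adjusted p = 0.0376), Cdca8 at -0.43 (adjusted p = 0.0493) and Cdk1 at -0.35 (adjusted p = 0.0426). Mad2l1 was at -0.48 (adjusted p = 0.0366) and Nusap1 at -0.34 (adjusted p = 0.0484). Prc1 was at -0.42 (adjusted p = 0.0297) and Spc25 at -0.54 (adjusted p = 0.0259).

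Only Birc5, Incenp and Pttg1 passed in both the uncorrected and the corrected fit of replicates 1 and 2, all 3 lower. Pttg1, a short gene of 2.00 kb, kept its value at -0.64 (adjusted p = 0.0157), Birc5 was at -0.44 (adjusted p = 0.0221) and Incenp at -0.35 (adjusted p = 0.0481). With all 6 libraries and this correction, edgeR gave 0 genes at an adjusted p under 0.05 (0% of all) and 2 lower ones at an unadjusted p under 0.05, where 5.53% of all tested genes were lower and 3.86% higher. They were Pttg1 (log2 fold change -0.43, unadjusted p = 0.0250) and Spc25 (-0.35, unadjusted p = 0.0341). The median of the 36 was then -0.12 with 6 libraries and -0.19 with 4. Whether length and GC differences between libraries came from the RNA or from its preparation was not tested.

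**Figure D5:**
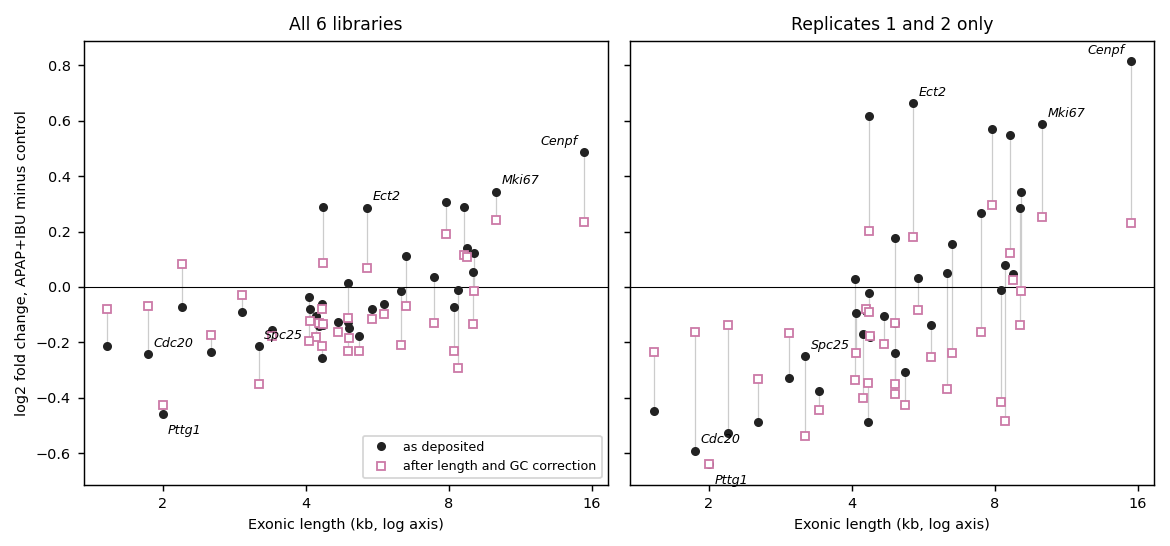
Log2 fold change, APAP+IBU minus control, of the 36 genes against their exonic length (kb, log axis) before (black points) and after (open squares) correction of each library for length and GC content, with all 6 libraries (left) and replicates 1 and 2 only (right). Black points climb from left to right (Spearman 0.76 and 0.80), the squares less so (0.28 and 0.39), and Pttg1 stays lowest of the uncorrected points in both panels.

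Another 96 genes of mitosis were tested beside the 36. None passed an adjusted p of 0.05 with all 6 libraries, their median log2 fold change was 0.02, and 1 had an unadjusted p under 0.05 (1.04% of them, against 6.22% of all tested genes). This was Stmn1 (stathmin, which destabilises microtubules), at 484, 488 and 331 CPM in controls and 287, 285 and 343 CPM in exposed ovaries (log2 fold change -0.51, SE 0.18, adjusted p = 0.692). It was the lowest of the 96, and the next lowest were Pkmyt1 (-0.32), a kinase that inhibits CDK1, and Cdca5 (-0.31), which encodes sororin. Among the highest were the long kinetochore gene Knl1 (0.48) and the condensin gene Ncapg2 (0.46). With replicates 1 and 2, 23 of the 96 were higher and 15 lower at an adjusted p under 0.05, which is 39.6% of them where 27.2% of all genes were called.

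Foxm1, a transcription factor of late cell cycle genes, was at 81.7, 80.8 and 84.0 CPM in controls and 82.0, 92.5 and 96.7 CPM in exposed ovaries (log2 fold change 0.14, SE 0.11, adjusted p = 0.719, and 0.12, adjusted p = 0.364 with replicates 1 and 2). Mybl2, which acts with the MuvB complex, was at 92.3, 68.5 and 78.9 CPM against 57.6, 64.3 and 104 CPM (-0.09, SE 0.23, adjusted p = 0.904, and -0.38, adjusted p = 0.0942 with replicates 1 and 2). The 21 members with CCAAT upstream of a CHR hexamer had a median log2 fold change of -0.07 and ranged from -0.24 to 0.49. The other 9 with a window had -0.02 and ranged from -0.46 to 0.29. Of the 13 calls within replicates 1 and 2, 4 higher and 4 lower ones were among the 21. Of 22 DNA replication genes, 18 had log2 fold changes below 0 with all 6 libraries (median -0.15), 0 passed an adjusted p of 0.05, and within replicates 1 and 2, 9 were lower and 2 higher at that limit, where 12.9% and 14.2% of all tested genes were.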

How the data were processed

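Ovaries of 13.5 dpc embryos gave 6 RNA libraries, 3 per group by the exposure label (control or APAP+IBU). According to the labels and methods, the authors made stranded polyadenylated libraries, mapped reads to mm10 with TopHat2 2.0.14 and Bowtie2 2.1.0 and counted them per gene of Ensembl with HTSeq 0.6.1. The strand setting of the counting is not given in the sources used here. The deposited values are raw counts, without normalisation. Members were matched by symbol through GENCODE M21, which paired 48349 of the 48709 identifiers and gave positions, the merged exonic length and GC content.

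These counts were fitted in edgeR 4.0.16 (R 4.3.3) with TMM factors, its expression filter (20167 genes kept) and the quasi-likelihood test over all 6 libraries, without covariates, and p-values were adjusted by the Benjamini-Hochberg method over all tested genes. All 36 members passed the filter in every fit. Levels are CPM. Tests were two-sided, and the single-gene exact permutation test permuted the group labels. Alternatives were DESeq2 1.42.0, 3 other scalings, 2 other filters, the replicate number as a block, a loess correction (span 0.3) of each library for length and GC content, replicates 1 and 2 only, and leaving out each library. No library was counted as a duplicate. P-values measure the spread between the pools of each fit. Those of replicates 1 and 2 leave out the pools that stood apart, so they do not measure the spread among all pools of a group. In that fit 41% of all tested genes had an unadjusted p under 0.05, against 6.22% with all 6 libraries. The named genes are all members, the 3 highest and 3 lowest of the other mitosis genes and the first gene of a marker list. Foxm1, Mybl2, Rec8, Wnt4 and the germ cell markers beside Ddx4 were added after their values had been seen. A result that this rule names is not reported here. Promoters came from RefSeq. Members, lists and the choice of replicates 1 and 2 were made with earlier results of these data known.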

Additional observations from a re-analysis of the deposited data

How the results depend on the processing

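Each group held 3 pools, replicate 3 stood apart in both, and the lowest count of the 36 genes in any library was 481. The median log2 fold change of the 36 stayed below 0 under every alternative run except without control replicate 3, where it was 0.08, and leaving out 1 library gave -0.22 to 0.08. Across scalings, filters, DESeq2, the replicate block and the correction for gene length and GC content, 0 genes had an adjusted p under 0.05. With replicates 1 and 2 only the number was 13, with the length and GC correction added it was 10, and leaving out 1 library gave 0 to 3. At an unadjusted p under 0.05 the number was 1 as reported, 2 with no filter, with DESeq2 and with the length and GC correction, 19 with replicates 1 and 2, 17 with these and the correction, and 0 to 10 without 1 library. Of the other 96 mitosis genes 1 passed this limit as reported, 2 with no filter, 8 with the correction, 3 with the correction and the block, 55 with replicates 1 and 2, 35 with these and the correction, and 0 to 39 without 1 library. Of all tested genes, 6.22%, 7.16%, 9.39%, 6.47%, 41% and 30.8% passed in the first 6 of these fits, and 2.80% to 30.5% without 1 library. Genes whose groups did not overlap numbered 2 as reported, 1 on total counts, 4 after the correction, 27 with replicates 1 and 2, 29 with these and the correction, and 2 to 19 without 1 library, where 10.7%, 10.5%, 14.2%, 68.5%, 61.2% and 14.7% to 48.6% of all tested genes did not. The cause of these differences was not tested.

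Over all tested genes, the deviations of same-numbered libraries from their group means had correlations of -0.07, -0.02 and -0.04, although both replicate 3 libraries stood apart in liver genes and in 18 of the 36. The labels tie no number to a shared litter or day, and the methods, which describe pools for each independent experiment, do not give the number of each. With the replicate number as a block, 0 of the 36 and 0 of the other mitosis genes had an unadjusted p under 0.05 (681 of all 20167). With the length and GC correction, the block with this correction, and replicates 1 and 2 with it, log2 fold changes turned negative for Anln (-0.015, -0.014, -0.014), Kif11 (-0.13, -0.14, -0.16), Ndc80 (-0.070, -0.076, -0.24), Top2a (-0.13, -0.14, -0.14) and Ttk (-0.11, -0.11, -0.13), and Plk1 turned to 0.082 and 0.057 in the first and the second. With replicates 1 and 2, Kif4 (0.034), Mad2l1 (0.081), Nuf2 (0.049) and Nusap1 (0.027) turned positive. Total counts turned Mad2l1 (0.023) and Nuf2 (0.016), no filter turned Mad2l1 (0.0010) and upper-quartile scaling turned Ttk (-0.015). Leaving out 1 library turned 14 genes, none with an adjusted p under 0.05. Their ranges were -0.33 to 0.0023 for Aurkb, -0.34 to 0.13 for Ccna2, -0.41 to 0.089 for Ccnb1, -0.25 to 0.019 for Cenpa, -0.11 to 0.32 for Kif11, -0.20 to 0.072 for Kif20a, -0.16 to 0.0035 for Kif4, -0.090 to 0.085 for Mad2l1, -0.13 to 0.083 for Nuf2, -0.16 to 0.11 for Nusap1, -0.44 to 0.11 for Plk1, -0.24 to 0.12 for Prc1, -0.050 to 0.21 for Top2a and -0.081 to 0.18 for Ttk.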
